A study of Mus musculus with 13 samples.

Results

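The collagen alpha chains are the 44 genes of the count table whose mouse symbol has the form Col, a type number, the letter a and a chain number. They were taken from 55357 genes, of which 52081 could be given a symbol. Their expression was read in mouse tail tissue by sequencing total RNA depleted of ribosomal RNA, in 7 TNTSham samples and 6 TNTProx1 samples. Per the labels, all 13 are tail tissue taken on day 28 post-TNT at an age of 12 wk, and the series title names lymphedema, a swelling from failed lymphatic drainage. TNT is taken here to stand for tissue nanotransfection, in which an electric field drives nucleic acids into skin cells. Prox1 encodes a transcription factor of lymphatic endothelium. No strain, sex, construct or dose is given in the labels, and nothing there says which cells received the construct. Whether each sample is a separate animal is not stated, so every p-value measures spread between these samples, which may be technical.

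Collagens are the main structural proteins of skin, tendon, bone and cartilage. Each molecule is built from 3 alpha chains that wind around each other, which requires glycine, the smallest amino acid, at the start of each triplet of residues in the wound part. Fibrillar collagens have a long unbroken helix and pack into the fibrils of dermis, tendon and bone. Basement membrane collagens have a broken, flexible helix and form sheets under epithelium, around vessels and around muscle fibres. The fibril-associated collagens with interrupted triple helices (FACIT) sit on fibril surfaces. Collagens XVII and VII anchor the epidermis to the dermis, and collagens II, IX, X and XI are known from cartilage. A swollen limb with long-standing lymphedema is known to become fibrotic, with collagen laid down in skin and subcutis.

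The coding repeat shows how these classes differ. In the GENCODE M21 coding sequences, the longest unbroken run of triplets that start with a glycine codon was 338 triplets in Col1a1, 339 in Col1a2 and 344 in Col3a1. It was 40 in Col4a1 and 66 in Col4a2, the chains of the common basement membrane molecule. It was 56 in Col17a1, the transmembrane collagen of basal keratinocytes, and 32 in Col12a1, a FACIT chain whose protein is mostly made of other domains. The following 90 bases of each, with every glycine codon in capitals, come from inside the longest run of Col1a1 (codons 468 to 497) and from where the longest run ends in the other chains (codons 148 to 177 of Col4a1, 801 to 830 of Col17a1 and 2886 to 2915 of Col12a1).
Col1a1: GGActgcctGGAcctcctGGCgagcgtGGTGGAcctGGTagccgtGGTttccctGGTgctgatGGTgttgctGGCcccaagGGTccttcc
Col4a1: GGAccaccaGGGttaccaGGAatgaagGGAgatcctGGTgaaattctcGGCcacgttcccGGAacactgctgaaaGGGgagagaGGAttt
Col17a1: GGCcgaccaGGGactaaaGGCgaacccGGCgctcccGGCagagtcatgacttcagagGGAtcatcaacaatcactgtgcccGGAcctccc
Col12a1: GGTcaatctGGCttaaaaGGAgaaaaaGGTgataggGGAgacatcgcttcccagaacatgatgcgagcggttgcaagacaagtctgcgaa
The Col1a1 stretch starts every triplet of codons with glycine and has no gap. A further glycine codon of that stretch falls inside a triplet. In Col4a1 the spacing slips and the repeat then resumes at the end of the stretch. In Col17a1 the repeat breaks, and the later glycine codons of the stretch are not at triplet spacing. The last repeat of this Col12a1 stretch is followed by coding sequence with no further glycine codon.

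The libraries held between 29691929 and 48007392 counts. Levels are CPM, counts scaled to library size by the trimmed mean of M values, and samples are named by group and number. TNTProx1 4, 5 and 6 stood apart from the other 10 libraries on principal component 1 (69.6% of the variance). They held 3410 to 3539 CPM of Malat1, a nuclear RNA, against 8979 CPM or more in the other 10. Medians of chain classes and of marker lists are therefore also given from the 10 libraries without them, as are chains whose value moved most. Prox1, the gene named in the group label, had overlapping ranges. The TNTSham libraries averaged 28.1 ± 2.95 CPM (SD, n = 7) and the TNTProx1 libraries 37.5 ± 19.0 CPM (SD, n = 6). Within TNTProx1, libraries 1 to 3 averaged 48.4 ± 22.2 CPM (SD) and libraries 4 to 6 averaged 26.6 ± 7.12 CPM. The log2 fold change of Prox1 was 0.41 ± 0.23 (SE, edgeR adjusted p = 0.506). In the 10 libraries it was 0.78 (edgeR adjusted p = 0.0747). Xist was at 2095 CPM in TNTSham 1 and near 0 in the other 12 libraries, TNTSham and TNTProx1 alike.

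Every one of the 44 chains reached 1 CPM in at least 3 libraries, so none was set aside as undetected, and all 44 entered the test. Collagen genes took 5.42% ± 1.28 (SD, n = 7) of all counts in TNTSham, with a range of 3.83 to 6.94%. They took 7.60% ± 3.0 (SD, n = 6) in TNTProx1, with a range of 5.02 to 12.97%. TNTProx1 2, 3 and 6 lay above the TNTSham range and the other 3 lay inside it. The 3 genes Col1a1, Col1a2 and Col3a1 held 78.9% ± 3.03 of collagen counts in TNTSham and 80.4% ± 4.2 in TNTProx1. Basement membrane chains held 1.93% ± 0.471 and 2.34% ± 0.613, and the epidermal pair 1.92% ± 0.502 and 1.25% ± 0.650.

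**Figure D1:**
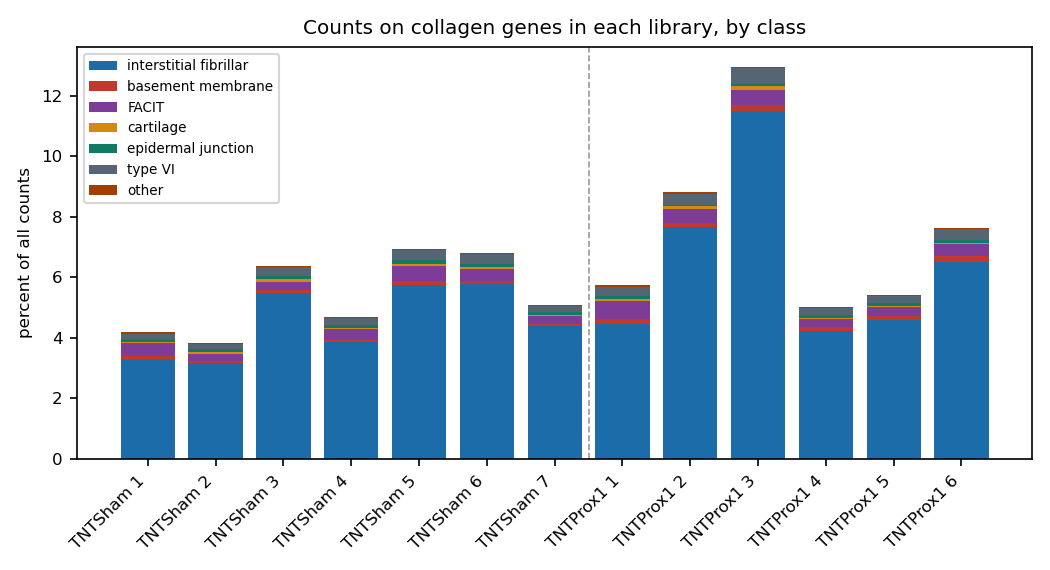
Percent of all counts on the 44 collagen genes in each library, stacked by class. TNTProx1 3 is highest at 12.97% and TNTSham 2 lowest at 3.83%, and fibrillar chains fill most of every bar.

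Levels of different chains were compared per kilobase of exon in TNTSham. Col1a1, a chain of type I collagen in dermis, tendon and bone, led with 2776 ± 822 CPM per kb (SD, n = 7). Col1a2, its partner, followed with 1272 ± 330 and Col3a1, the fibrillar chain of loose dermis and vessels, with 876 ± 147. Col6a1 (192 ± 47.7) and Col12a1 (190 ± 65.1) came next and did not differ beyond their spread, nor did Col17a1 (134 ± 13.7) and Col5a2 (133 ± 32.9). The length chosen mattered. With the length of the transcript that has the longest coding sequence, Col1a2 stood at 2955 CPM per kb beside 3072 for Col1a1, and Col12a1 passed Col6a1. Col26a1 was lowest by either length, at 0.0850 ± 0.0367 CPM per kb by exon length, from as few as 9 counts in a library.

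The samples of the sham group were themselves far apart for some chains. The highest TNTSham library exceeded the lowest by 20.5-fold for Col2a1 and 14.0-fold for Col9a1, both cartilage chains, and by 1.35-fold for Col17a1 and 1.53-fold for Col3a1. TNTSham 5 was the highest of its group for 23 of the 44 chains. TNTProx1 3 was the highest of its group for 25 chains, and TNTProx1 4 the lowest for 24.

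More collagen chains stood higher than lower in TNTProx1, but no chain passed the test across all genes. The quasi-likelihood test of edgeR called 0 of the 44 at an adjusted p under 0.05, where it also called 0 of the 22876 genes tested (0.0%). At an unadjusted p under 0.05, 15 chains (34.1%) were higher against 8.33% of all genes. On the lower side there was 1 chain (2.27%), Col4a6, against 3.92% of all genes. The log2 fold change was above 0 for 36 of 44 chains (81.8%) and for 47.7% of all genes. The median log2 fold change was 0.42 for the chains and -0.02 for all genes. Without TNTProx1 4 to 6, 0 chains were called. At an unadjusted p, 21 were then higher and 0 lower, against 9.34% and 12.1% of all genes, and the median of the chains was 0.68. Omitting TNTProx1 3 alone lowered the count of higher chains at an unadjusted p from 15 to 6, and omitting TNTSham 7 lowered it to 9.

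Other tools called a few chains. DESeq2 called Col15a1, Col4a1, Col4a2, Col8a2 and Col18a1, each higher, where it called 1.98% of all genes higher. Limma voom with quality weights called 7 chains, each higher, where it called 1.86% of all genes higher. They were Col4a1, Col4a2, Col15a1 and Col8a2, which DESeq2 also called, and Col5a3, Col6a6 and Col13a1. At an unadjusted p under 0.05 it placed 28 chains higher, against 9.49% of all genes. Limma trend called 0 chains, as it called 0 of all genes. At an unadjusted p it placed 14 chains higher and 1 lower, against 6.93% and 6.53% of all genes. No chain had all 6 TNTProx1 libraries outside the TNTSham range, a pattern that 0.398% of all genes had above it and 0.214% below it.

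**Figure D2:**
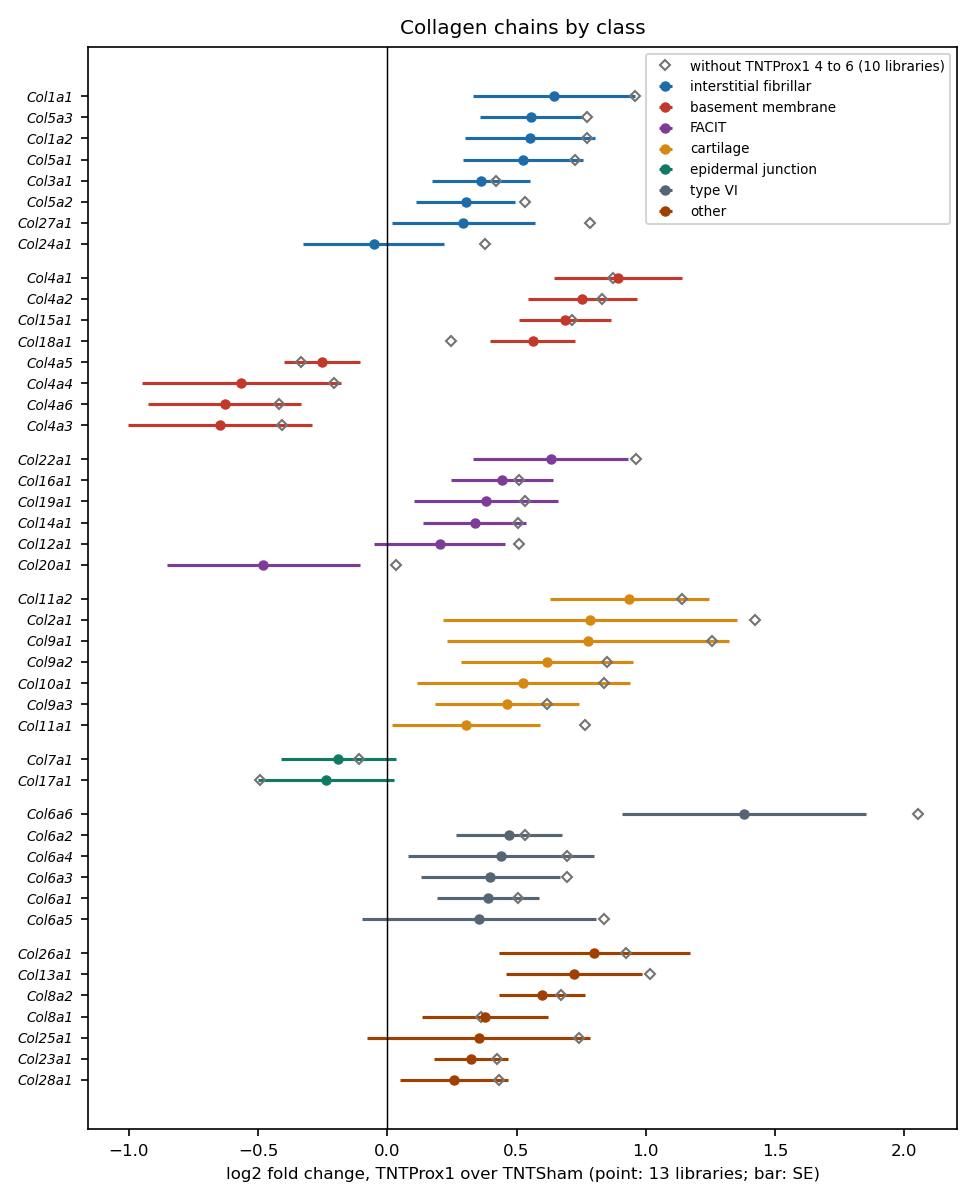
Log2 fold change of TNTProx1 over TNTSham for the 44 chains by class (filled points, 13 libraries; bars, standard error), with the value from the 10 libraries without TNTProx1 4 to 6 as open diamonds. Of the filled points, 36 lie above 0, and the 4 basement membrane points below 0 are Col4a3, Col4a4, Col4a5 and Col4a6.

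Interstitial fibrillar chains stood higher in 7 of 8 cases, 3 of them at an unadjusted p under 0.05, with a median log2 fold change of 0.44. In the 10 libraries all 8 were higher, 6 of them at an unadjusted p, with a median of 0.75. Of all genes, 8.33% were higher at that p in the 13 libraries and 9.34% in the 10. Col1a1 (ENSMUSG00000001506, chromosome 11) ran in TNTSham from 11629 CPM through a median of 17337 to 25172, and in TNTProx1 from 14798 through 24440 to 58102. The ranges overlapped, and TNTProx1 2, 3 and 6 lay above the highest TNTSham library. Its log2 fold change was 0.64 ± 0.31 (SE), with an edgeR adjusted p of 0.429. Without TNTProx1 3, the library at 58102 CPM, it was 0.29.

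Col3a1 (chromosome 1) ran from 7093 CPM through 8077 to 10839 in TNTSham and from 7716 through 9958 to 16275 in TNTProx1. TNTProx1 3 and 6 were above the TNTSham range and the other 4 inside it. The log2 fold change was 0.36 ± 0.19 (edgeR adjusted p = 0.463) and dropped to 0.20 without TNTProx1 3. Among the minor chains, which regulate fibril width in type V collagen, Col5a1 (0.52), Col5a2 (0.30) and Col5a3 (0.56) had positive log2 fold changes. The fibrillar chains with a shorter helix were within about their standard error of 0. Col27a1 had a log2 fold change of 0.29 ± 0.28, and 0.78 in the 10 libraries. Col24a1 had -0.05 ± 0.27, and 0.38 in the 10 libraries. TNTProx1 1, 2 and 3 all exceeded the highest TNTSham library for Col27a1, Col11a1 and Col6a6, that is 3 of 44 chains (6.82%) against 3.45% of all genes. These libraries lay wholly below the sham range for 0 chains, against 5.8% of all genes.

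Bone cells also make type I collagen, and the tail holds vertebrae. All 10 genes of an osteoblast and bone matrix list had a positive log2 fold change (median 0.65), 5 of them at an unadjusted p under 0.05, where 8.33% of all genes were higher. EdgeR called 0 of them and DESeq2 called 1, where it called 1.98% of all genes higher. In the 10 libraries 9 of 10 were positive, with a median of 1.04. Their summed level ran from 162 CPM in TNTSham 4 to 871 in TNTSham 5, and from 549 CPM in TNTProx1 4 to 1094 in TNTProx1 3. TNTProx1 3 was highest for the bone list and for Col1a1, and also for the chondrocyte, tenocyte and osteoclast lists. No gene of the list was at 0 in all 13 libraries. Of 10 fibroblast markers 8 were higher, 4 of them at an unadjusted p under 0.05, with a median of 0.27, or 0.21 in the 10 libraries. EdgeR called 0 of these markers and DESeq2 called 1. Their summed levels were 4294 to 5410 CPM in TNTSham and 4176 to 6146 CPM in TNTProx1. Of 6 tenocyte markers 5 were higher, none at an unadjusted p under 0.05, and 1 was lower at that p. Their median was 0.11, or 0.27 in the 10 libraries. The part of bone, of tendon or of fibroblast number in the collagen values was not tested. In bulk tissue, fewer cells of a type and less RNA per cell cannot be told apart.

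**Figure D3:**
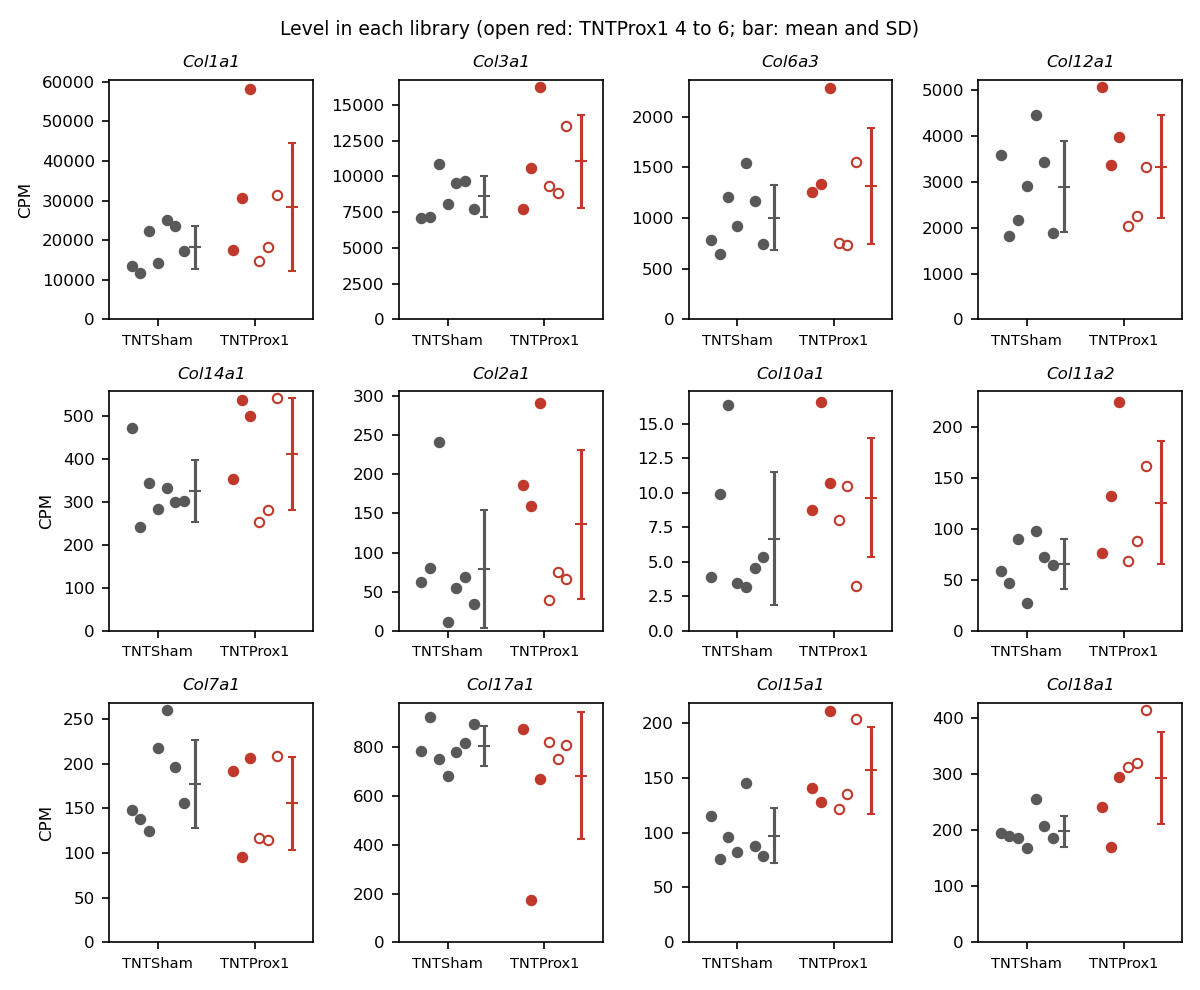
Level (CPM, linear axes from 0) of 12 chains in each library, with the mean and SD of each group. Open symbols are TNTProx1 4 to 6. Every panel overlaps between groups, TNTProx1 3 is highest in Col1a1, Col3a1, Col6a3, Col2a1, Col11a2 and Col15a1, and TNTProx1 2 is alone at 174 CPM in Col17a1.

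The basement membrane class split. Col4a1, Col4a2, Col15a1 and Col18a1 stood higher, each at an unadjusted p under 0.05. Col4a3, Col4a4, Col4a5 and Col4a6 stood lower, with Col4a6 at an unadjusted p under 0.05. At that p, 8.33% of all genes were higher and 3.92% lower. The class median of 0.15 describes neither side, and in the 10 libraries the same 4 chains were above 0 and the same 4 below, with a median of 0.02. Col4a1 and Col4a2 make the molecule found in nearly every basement membrane. Col4a3 to Col4a6 make specialised molecules, known from kidney, lung, epidermis and smooth muscle.

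Col4a1 (ENSMUSG00000031502, chromosome 8) ran from 249.1 CPM through 310 to 690 in TNTSham and from 448 through 671 to 1029 in TNTProx1. TNTProx1 1, 3 and 6 exceeded TNTSham 5, which held the top of the sham range, and all 6 exceeded the sham median. The log2 fold change was 0.89 ± 0.25 (edgeR adjusted p = 0.151), and 0.87 in the 10 libraries. Col4a2, on the same chromosome, ran from 224 through 262 to 472 CPM in TNTSham and from 309 through 458 to 667 CPM in TNTProx1. The same 3 TNTProx1 libraries lay above the sham range, and the log2 fold change was 0.75 ± 0.21 (edgeR adjusted p = 0.150). Omitting TNTSham 5 raised the values to 1.11 for Col4a1 and 0.91 for Col4a2, and omitting any other library kept them at 0.63 or more.

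Both start sites lie head to head. In RefSeq on GRCm38.p6 the first exons of Col4a1 and Col4a2, read in opposite directions, share the 22 bases of chr8:11312805-11312826, shown on the plus strand because these chains had like values.
Col4a1 and Col4a2: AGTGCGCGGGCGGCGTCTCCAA
Within TNTSham the pair had a Pearson r of 0.986 and a Spearman rho of 1.0 on log2(CPM + 0.5) (exact permutation p = 0.000198 and 0.000397; adjusted over 6 relations 0.000595 and 0.00119; n = 7). Without TNTSham 1 and 5, the 2 libraries farthest from the median, r was 0.911.

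Col15a1 (chromosome 4), a collagen of vessel and muscle basement membranes, had the smallest p of all chains. It ran from 76.4 CPM through 87.9 to 145 in TNTSham and from 122 through 138 to 211 in TNTProx1. TNTProx1 3 and 6 were above the sham range, and all 6 were above 6 of the 7 TNTSham libraries. It gave a log2 fold change of 0.69 ± 0.18 (edgeR adjusted p = 0.131). Col18a1 (chromosome 10), the precursor of endostatin, ran from 169 through 189 to 255 CPM and from 170 through 304 to 415 CPM. Its 4 highest libraries were TNTProx1 3 to 6, and TNTProx1 2 was at the bottom of the sham range. The log2 fold change of 0.56 ± 0.17 (edgeR adjusted p = 0.169) was 0.25 in the 10 libraries without TNTProx1 4 to 6.

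Endothelial markers stood higher alongside these 4 chains. All 9 had a positive log2 fold change (median 0.56, or 0.58 in the 10 libraries), against 47.7% of all genes. Of these markers 7 were at an unadjusted p under 0.05, where 8.33% of all genes were higher. EdgeR called 0 of them and DESeq2 called 5, where it called 1.98% of all genes higher. Their summed level was 385 to 693 CPM in TNTSham, highest in TNTSham 5, and 643 to 858 CPM in TNTProx1, highest in TNTProx1 6. TNTSham 5 and TNTProx1 6 were also the highest of their groups for Col4a1, Col4a2 and Col18a1. For Col15a1 the highest were TNTSham 5 and TNTProx1 3. TNTSham 5 was the highest of its group for 23 of the 44 chains. TNTProx1 6 was also highest for the keratinocyte list and for the smooth muscle and pericyte list. No gene of the list was at 0 in all 13 libraries, and the part of endothelial content in these chains was not tested.

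The 4 remaining type IV chains were scarce. Col4a6 (chromosome X) ran from 15.4 CPM through 22.04 to 26.4 in TNTSham and from 5.29 through 14.9 to 23.8 in TNTProx1. TNTProx1 2, 4 and 5 lay below the sham range, TNTProx1 5 narrowly, and the other 3 lay inside it. TNTProx1 over TNTSham gave a log2 fold change of -0.63 ± 0.29 (edgeR adjusted p = 0.407) and became -0.46 without TNTProx1 4. Col4a5, its neighbour, ran from 20.1 through 24.4 to 31.4 CPM and from 12.4 through 22.5 to 24.2 CPM. All but TNTProx1 2 and 5 lay within the sham range, and the log2 fold change was -0.25 ± 0.15 (edgeR adjusted p = 0.523), or -0.14 without TNTProx1 2. Col4a3 (chromosome 1) stood at 2.79 ± 1.07 CPM in TNTSham and 1.78 ± 0.915 in TNTProx1, from 29 to 198 counts per library. It ran from 1.91 through 2.46 to 4.97 CPM and from 0.653 through 1.85 to 2.72 CPM. Its log2 fold change was -0.65 ± 0.36 (edgeR adjusted p = 0.491), and for Col4a4 it was -0.56 ± 0.39. Of Col4a3 exon bases 5.65% also belong to another annotated gene, on the opposite strand. How reads from those bases were counted is not stated.

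**Figure D4:**
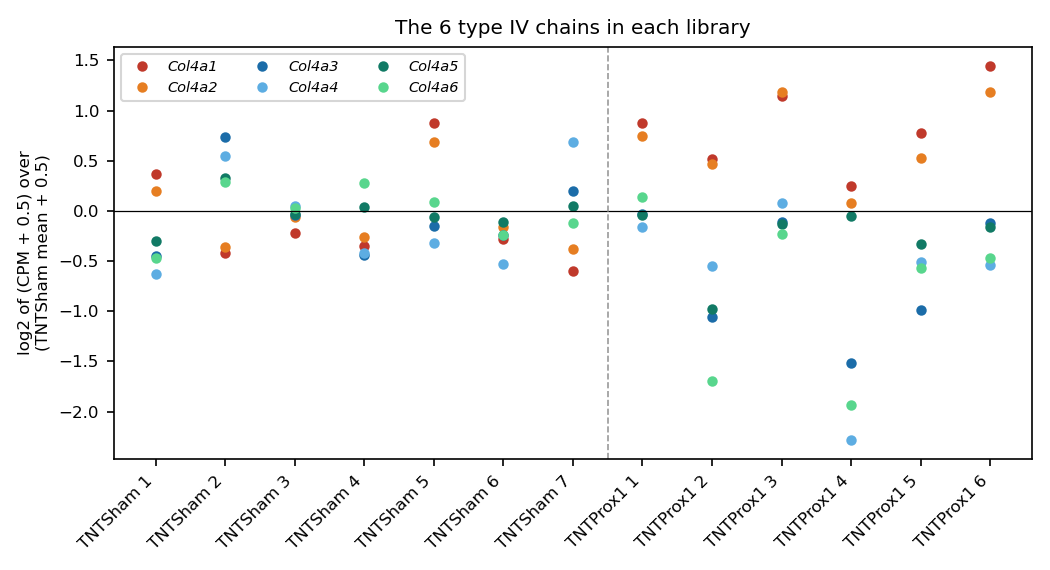
The 6 type IV chains in each library, as log2 of CPM + 0.5 over the TNTSham mean + 0.5. In all 6 TNTProx1 libraries Col4a1 and Col4a2 lie above 0, and Col4a3, Col4a4 and Col4a6 reach their lowest points in TNTProx1 4 (Col4a5 in TNTProx1 2).

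The starts of Col4a5 and Col4a6 on chromosome X are 1343 bases apart in RefSeq on GRCm38.p6 and are also read in opposite directions. The 216 bases of chrX:141475169-141475384 on the plus strand lie before the first Col4a5 exon in GENCODE M21, which begins upstream of the RefSeq start at 141475419. They are shown with the letters CCAAT in capitals. These letters do not set this start apart, since the 250-base windows before Col4a1 and Col4a2 also hold CCAAT on either strand.
Col4a5: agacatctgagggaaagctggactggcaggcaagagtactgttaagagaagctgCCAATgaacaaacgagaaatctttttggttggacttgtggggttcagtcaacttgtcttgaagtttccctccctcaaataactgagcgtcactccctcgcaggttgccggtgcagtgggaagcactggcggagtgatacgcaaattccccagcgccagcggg
Its GC content was 52.3%. Windows of 250 bases before the start were in the RefSeq table for 35 of the 44 chains (38 windows), with a median GC content of 59.0% against 52.4% in all 32851 windows. On either strand, CCAAT was present in 34.2% of collagen windows and 33.8% of all windows, TATAAA in 13.2% and 12.4%, and GGGCGG in 57.9% and 32.7%. These are matches of letters and show no binding.

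Type VI collagen forms beaded filaments around cells in muscle and dermis. All 6 chains stood higher, 2 at an unadjusted p under 0.05, with a median of 0.42. The median was 0.70 in the 10 libraries, again with 2 chains at an unadjusted p. The share of all genes higher at that p was 8.33%, or 9.34% in the 10 libraries. Col6a3 (chromosome 1) ran from 649 CPM through 920 to 1546 in TNTSham and from 739 through 1297 to 2280 in TNTProx1. TNTProx1 3 and 6 exceeded the sham range, TNTProx1 6 by a narrow margin. This amounted to a log2 fold change of 0.40 ± 0.27 (edgeR adjusted p = 0.594), and 0.15 without TNTProx1 3. Col6a1 and Col6a2, which lie next to each other on chromosome 10 and pair with Col6a3, had 0.39 and 0.47. The largest log2 fold change of any chain was that of Col6a6, 1.38 ± 0.47 (edgeR adjusted p = 0.243), a scarce chain at 2.28 ± 0.796 CPM in TNTSham and 5.94 ± 5.38 in TNTProx1. TNTProx1 2 and 3 were at 9.56 and 15.3 CPM and the other 4 at 3.57 or less. Without TNTProx1 3 the value was 0.83, and in the 10 libraries 2.05.

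Among the FACIT chains 5 of 6 stood higher, 1 of them, Col16a1 (0.44), at an unadjusted p under 0.05, with a median of 0.36. In the 10 libraries all 6 were higher, 3 at an unadjusted p, with a median of 0.51. Higher at that p were 8.33% of all genes, or 9.34% in the 10 libraries. Col12a1 (chromosome 9), of tendon, dermis and periosteum, ran from 1824 CPM through 2918 to 4457 in TNTSham and from 2038 through 3336 to 5057 in TNTProx1. TNTProx1 1 alone was above the sham range, and the log2 fold change was 0.20 ± 0.25 (edgeR adjusted p = 0.778). It was 0.04 without TNTProx1 1, 0.34 without TNTSham 5 and 0.51 in the 10 libraries. Col14a1 (chromosome 15), known from reticular dermis, ran from 243 through 303 to 472 CPM and from 254 through 427 to 542 CPM. TNTProx1 2, 3 and 6 exceeded the sham range, and the log2 fold change was 0.34 ± 0.20 (edgeR adjusted p = 0.532), or 0.51 in the 10 libraries. Col22a1, a collagen of muscle and tendon junctions, had 0.63. Skeletal muscle markers were lower in 7 of 8 cases, with a median log2 fold change of -0.77, or -0.86 in the 10 libraries. At an unadjusted p under 0.05, 5 were lower, against 3.92% of all genes. EdgeR called 0 of them and DESeq2 called 5, all lower, where it called 619 of 22876 genes in either direction. Their summed level was 9084 to 15400 CPM in TNTSham and 4124 to 11630 CPM in TNTProx1. The part of muscle content in the chains was not tested. Col20a1, at 4.87 ± 1.02 CPM in TNTSham, had -0.48, which was 0.03 in the 10 libraries.

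All 7 cartilage chains stood higher, 1 of them at an unadjusted p under 0.05, with a median of 0.62. In the 10 libraries 3 were at an unadjusted p under 0.05, and the median was 0.85. Among all genes 8.33% were higher at that p, or 9.34% in the 10 libraries. Col2a1 (chromosome 15), the fibrillar chain of cartilage, ran from 11.8 CPM in TNTSham 4 through 62.0 to 241 in TNTSham 3, and from 38.9 in TNTProx1 4 through 117.2 to 291 in TNTProx1 3. The TNTProx1 range began inside the sham range, and TNTProx1 3 alone exceeded it. It gave a log2 fold change of 0.78 ± 0.57 (edgeR adjusted p = 0.622), and 1.38 without TNTSham 3 and 0.40 without TNTProx1 3. Col10a1 (chromosome 10), the chain of hypertrophic chondrocytes, ran from 3.18 through 4.58 to 16.4 CPM and from 3.29 through 9.65 to 16.6 CPM. The ranges nearly coincided, and the log2 fold change was 0.53 ± 0.41 (edgeR adjusted p = 0.646), or 0.92 without TNTSham 3 and 0.30 without TNTProx1 2.

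Col11a2 (chromosome 17), a minor fibrillar chain of cartilage, was the 1 cartilage chain at an unadjusted p under 0.05. It ran from 27.6 CPM through 64.97 to 97.7 in TNTSham and from 69.1 through 110 to 225 in TNTProx1, with TNTProx1 2, 3 and 6 above the sham range. TNTProx1 over TNTSham gave a log2 fold change of 0.94 ± 0.31 (edgeR adjusted p = 0.217), and 0.67 without TNTProx1 3. The libraries above the sham range were the same 3 as for Col1a1, and within TNTSham the highest library was TNTSham 5 for Col11a2 and TNTSham 3 for Col2a1. Col11a1 held the highest level of the cartilage class, at 359 ± 121 CPM (SD) in TNTSham and 443 ± 196 CPM in TNTProx1. Its log2 fold change was 0.30 ± 0.29 (edgeR adjusted p = 0.702), and 0.77 in the 10 libraries. Within TNTSham it was highest in TNTSham 5, as were Col11a2 and Col1a1. Of 9 chondrocyte markers tested 7 were higher (median 0.37, or 0.60 in the 10 libraries), with summed levels of 285 to 537 CPM in TNTSham and 346 to 542 CPM in TNTProx1. TNTSham 3 and TNTProx1 3 were highest in their groups. The part of cartilage content in the chains was not tested.

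The chains of the epidermal junction stood lower, with no call, with a median of -0.21 and of -0.30 in the 10 libraries. Col7a1 (chromosome 9), the anchoring fibril chain, ran from 124 CPM through 156 to 260 in TNTSham and from 95.6 through 154 to 208 in TNTProx1. TNTProx1 2, 4 and 5 lay below the sham range, and the log2 fold change was -0.19 ± 0.22 (edgeR adjusted p = 0.758), or -0.31 without TNTProx1 3 and -0.07 without TNTSham 5. Col17a1 (chromosome 19), of the hemidesmosome, ran from 684 through 784 to 926 CPM in TNTSham and from 174 through 781 to 877 CPM in TNTProx1. The value of 174 CPM was TNTProx1 2, and the other 5 were between 669 and 877. This amounted to a log2 fold change of -0.24 ± 0.26 (edgeR adjusted p = 0.744), -0.04 without TNTProx1 2 and -0.49 in the 10 libraries. Keratinocyte markers stood lower in 9 of 10 cases, none at an unadjusted p under 0.05, with a median of -0.25. In the 10 libraries, which keep TNTProx1 2, 49.8% of all genes were above 0 and 12.1% were lower at an unadjusted p. There 10 of 10 keratinocyte markers were lower, 4 at that p, with a median of -0.78. Their summed level was 6033 CPM in TNTProx1 2 against 18483 to 56461 in the other TNTProx1 libraries and 26956 to 41553 in TNTSham. The part of epidermal content in Col17a1 and Col7a1 was not tested.

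Of the 7 other chains, all stood higher, with a median of 0.38, or 0.67 in the 10 libraries. At an unadjusted p under 0.05, 4 were higher, against 8.33% of all genes. Col8a2, a network chain of Descemet's membrane and vessels, had a log2 fold change of 0.60 ± 0.17 (edgeR adjusted p = 0.151), from 53.2 ± 15.2 CPM to 80.6 ± 9.74. Its TNTProx1 libraries lay between 70.6 and 95.7 CPM, 4 of them above the highest sham library at 71.3. The transmembrane chains Col13a1 (0.72) and Col23a1 (0.32), and Col26a1 (0.80), were the other 3 at an unadjusted p under 0.05. Col8a1, the partner of Col8a2, had 0.38 ± 0.24, and its highest library was TNTSham 1 at 492 CPM.

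**Figure D5:**
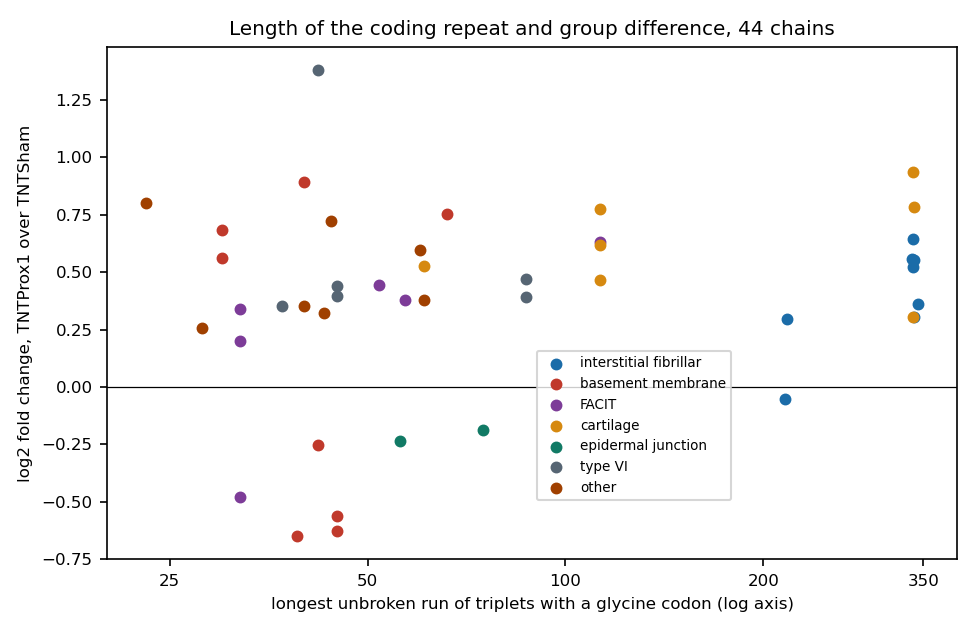
Longest unbroken run of triplets with a glycine codon (log axis) against log2 fold change, TNTProx1 over TNTSham, for the 44 chains by class. The chains at 337 triplets or more lie between 0.30 and 0.94, while chains with runs under 100 spread from -0.65 to 1.38.

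Ratios of chains within a library were compared, those of partner chains to see whether the chains of a molecule kept step. Col3a1 over Col1a1 and Col10a1 over Col2a1 pair chains of different collagen types. None of 6 ratios differed between the groups at an adjusted p under 0.05 in exact two-sided permutation tests of log2((CPM + 0.5)/(CPM + 0.5)). Col1a2 over Col1a1 differed by -0.03 (exact p = 0.749, adjusted 0.749), from -0.19 ± 0.06 (SD, n = 7) to -0.22 ± 0.21 (SD, n = 6). Col4a2 over Col4a1 differed by -0.18 (exact p = 0.0455, adjusted 0.215), and Col5a2 over Col5a1 by -0.21 (exact p = 0.0717, adjusted 0.215). Col6a2 over Col6a1 differed by 0.07 (exact p = 0.163, adjusted 0.325), but without TNTProx1 1 it was 0.12 with an adjusted p of 0.0227 in the same exact test. Col3a1 over Col1a1 differed by -0.20 (exact p = 0.290, adjusted 0.435), and by -0.47 in the 10 libraries (exact p = 0.0417, adjusted 0.250). Col10a1 over Col2a1 differed by -0.35 (exact p = 0.508, adjusted 0.610).

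Relations between chains were described within the 7 TNTSham libraries. On log2(CPM + 0.5), Col1a1 and Col1a2 had r = 0.997 and rho = 1.0 (exact permutation p = 0.000198 and 0.000397, adjusted 0.000595 and 0.00119, n = 7). Col1a1 and Col3a1 had r = 0.891 and rho = 0.786 (exact permutation p = 0.0175 and 0.0480, adjusted 0.0318 and 0.0576). Col1a1 and Col6a1 had r = 0.898 and rho = 0.857 (exact permutation p = 0.0212 and 0.0238, adjusted 0.0318 and 0.0476). Col1a1 and Col2a1 had r = 0.333 and rho = -0.04 (exact permutation p = 0.494 and 0.963, adjusted 0.494 and 0.963). The difference between these correlations was not tested. Col1a1 and the mean of the bone list had r = 0.713 and rho = 0.786 (exact permutation p = 0.0621 and 0.0480, adjusted 0.0745 and 0.0576). Without TNTSham 2 and 5, r was 0.997, 0.886, 0.830, 0.647 and 0.605 for Col1a2, Col3a1, Col6a1, Col2a1 and the bone list in that order.

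Genes that modify, export, cross-link and degrade collagen were read from lists of 68 genes. The table held 67 of them, and 64 passed the filter on low counts. The log2 fold change was positive for 57 (47.7% of all genes were above 0) and negative for 7. EdgeR called 0 and DESeq2 called 16, all higher, where it called 1.98% of all genes higher. At an unadjusted p under 0.05, 31 were higher (48.4%, against 8.33% of all genes) and 1 lower (against 3.92%), Kera, a proteoglycan of tendon and cornea. The median was 0.33. Without TNTProx1 4 to 6, 65 were tested, 39 were higher at an unadjusted p, against 9.34% of all genes, and the median was 0.44. Of 15 hydroxylases and glycosyl transferases, which prepare the chains for winding, 14 were higher, 10 of them at an unadjusted p. Plod3, a lysyl hydroxylase, ran from 29.5 to 42.7 CPM in TNTSham and from 46.2 to 59.7 CPM in TNTProx1, with no overlap. Its log2 fold change was 0.54 ± 0.10 (edgeR adjusted p = 0.0848). Crtap, of the prolyl 3-hydroxylase complex, ran from 60.1 to 82.2 CPM and from 84.8 to 121 CPM, again with no overlap, with 0.56 ± 0.11 (edgeR adjusted p = 0.0848). P4ha1, a prolyl 4-hydroxylase subunit, was also wholly above the sham range. This pattern was found in 0.398% of all genes.

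Of 9 chaperones and export factors 8 were higher, 5 at an unadjusted p under 0.05, with Serpinh1, the chaperone of procollagen, at 240 ± 49.8 CPM in TNTSham and 433 ± 126 in TNTProx1 (log2 fold change 0.85 ± 0.19, edgeR adjusted p = 0.104). Of 7 genes of propeptide removal 5 were higher, 3 at an unadjusted p, with Pcolce, an enhancer of that cleavage, at 0.63. All 5 cross-linking enzymes were higher, 4 at an unadjusted p, where 8.33% of all genes were higher. Lox, the main lysyl oxidase, ran from 741 to 1143 CPM in TNTSham and from 1147 to 1535 CPM in TNTProx1. The ranges lay next to each other without overlap, and 0.398% of all genes were wholly above the sham range. The log2 fold change of Lox was 0.38 ± 0.12 (edgeR adjusted p = 0.204). Proteoglycans and receptors had medians of 0.18 and 0.20.

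All 11 genes tested of the degradation list were also higher, 6 at an unadjusted p under 0.05. The list also holds Timp1, Timp2 and Timp3, which inhibit metalloproteinases, and Timp1 (0.51) was among those at an unadjusted p under 0.05. Ctsk, the cathepsin of osteoclasts and fibroblasts, ran from 332 to 583 CPM in TNTSham and from 631 to 1027 CPM in TNTProx1, with no overlap (log2 fold change 0.88 ± 0.15, edgeR adjusted p = 0.0848). Of all genes, 0.398% lay wholly above the sham range. Mmp9, a gelatinase, stood at 168 ± 85.7 CPM and 470 ± 160 CPM, with a log2 fold change of 1.49 ± 0.32 (edgeR adjusted p = 0.104). All 7 osteoclast markers had a positive log2 fold change (median 1.09, or 1.30 in the 10 libraries), against 47.7% of all genes. Of these markers 6 were at an unadjusted p under 0.05, where 8.33% of all genes were higher. EdgeR called 0 of them and DESeq2 called 4, where it called 1.98% of all genes higher. Their summed level was 383 to 767 CPM in TNTSham and 801 to 1450 CPM in TNTProx1. Ctsk is itself in that list, and the part of osteoclast number in the degradation genes was not tested.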

How the data were processed

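RNA from mouse tail tissue was extracted, depleted of ribosomal RNA and made into stranded paired-end libraries, per the labels' protocols. Per the submitters' processing notes, tools and builds include fastp 0.20.1, HISAT2 2.2.1, featureCounts of Subread 2.0.2 and GRCm39. The authors deposited raw counts per gene. How strand and multiply aligned reads were handled is not stated in these sources.

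Symbols, exon lengths and coding sequences came from GENCODE M21, on an older build, GRCm38, and start sites from RefSeq (GRCm38.p6). Identifiers of 3276 genes had no match. Counts were tested in edgeR 4.0.16 (R 4.3.3) with TMM scaling, filterByExpr, the quasi-likelihood test and Benjamini-Hochberg adjustment over 22876 genes. Fold changes are TNTProx1 over TNTSham. Their standard errors were derived as the absolute log2 fold change over the square root of the F statistic of that test. The test was also run on counts simulated from the means and dispersions of the fit to these data, with 50 genes changed at each fold. At an adjusted p under 0.05 it recovered 4 at 1.5-fold, 20 at 2-fold, 42 at 3-fold and 31 at 4-fold. It also made 3 false calls.

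Alternatives were DESeq2 1.42.0, limma 3.58.1 (voom with quality weights, trend), other scaling and filters, robust fits, a fit without TNTProx1 4 to 6 and each library left out. A second gene length was added after seeing the data. Full values are given for 12 preset chains and the 3 of smallest p in each direction; other chains and pathway genes are named with fewer. Plod3, Crtap, P4ha1, Serpinh1, Pcolce, Lox, Ctsk, Mmp9 and Kera were picked after their values were seen. Members, classes and lists were chosen with earlier results of these data known. Samples are numbered in accession order. No libraries were identical, and Spearman correlations between libraries were 0.925 to 0.992.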

Additional observations from a re-analysis of the deposited data

Results flagged for a closer look

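In 88 groups of values (44 chains in each treatment group), the gap between an extreme library and its nearest neighbour, divided by the range, exceeded Dixon's 95% critical value in 6. Chance gives about 1 in 20 groups. Col17a1 stood at 174 CPM in TNTProx1 2, with the next library at 669. Col4a5 stood at 12.4 CPM in the same library, with the next at 19.8. Col19a1, a scarce FACIT chain, stood at 4.16 CPM in TNTProx1 3, with the next at 2.30. Col2a1 stood at 241 CPM in TNTSham 3, with the next at 80.9. Col8a1 stood at 492 CPM in TNTSham 1, with the next at 284. Col25a1, a transmembrane chain, stood at 18.8 CPM in TNTSham 5, with the next at 9.23.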

How the results depend on the processing

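DESeq2 called 619 genes and 5 collagen chains, and limma voom with quality weights 573 genes and 7 chains, against 0 and 0 with edgeR. With no filter on low counts edgeR called 1 gene. Leaving out each library in turn gave 0 to 589 called genes, with 589 without TNTProx1 1 and 34 without TNTSham 5, and 0 chains each time. Chains higher at an unadjusted p under 0.05 numbered 15, 28 with voom, and 6 to 19 with a library left out. Chains lower numbered 1, 0 with robust fits and without TNTProx1 4 to 6, and 0 to 2 with a library left out. Voom raised the medians of all chains to 0.73, fibrillar to 0.80, FACIT to 0.63, type VI to 0.76 and the other class to 0.82. Leaving out TNTProx1 3 lowered all chains to 0.27, fibrillar to 0.24, FACIT to 0.19 and type VI to 0.24. The basement membrane median was 0.081 without TNTProx1 6 and 0.27 without TNTProx1 2, the epidermal median -0.059 without TNTProx1 2, and the other median 0.62 without TNTSham 1 and 0.67 without TNTSham 5. Class medians kept their sign with any library left out.

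Signs reversed for Col24a1 (0.35 with voom, 0.38 without TNTProx1 4 to 6, and 0.070, 0.060, 0.0027 and 0.14 without TNTProx1 4, 5 or 6 or TNTSham 5, the lowest value with a library left out being -0.16), Col20a1 (0.033 without TNTProx1 4 to 6) and Col7a1 (0.033 with voom). With a library left out, the Col1a2 over Col1a1 difference ran from -0.081 to 0.032, positive without TNTProx1 3, and the Col6a2 over Col6a1 difference from 0.048 to 0.12. The causes were not tested. Counts of 9 to 62 per library limit Col26a1. No paired analysis was possible because sample numbers follow accession order and pair nothing.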
